A study of Mus musculus with 2 samples.

Results

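The barcodes described here are those in which over 20% of the unique molecular identifiers (UMIs, 1 per captured RNA molecule) came from the mitochondrial genome. They numbered 833 of the 3109 barcodes in 2 single-cell libraries from mouse pancreatic tumor tissue, with 393 of 1621 in the EL1 library and 440 of 1488 in the WTg library. The members were chosen by the summed share of the 13 genes whose symbols start with mt-, so that share describes the set and is not a result. The highest share left outside was 19.9% in EL1 and exactly 20% in WTg, and the lowest share inside was 20.3% and 20.2%. In what follows, "high-mt barcodes" are these 833, and "kept barcodes" are those that had 500 or more genes and 1000 or more UMIs without passing 20% (1113 in EL1, 905 in WTg). All levels other than those of mt- genes are nuclear CPM, that is, CPM from UMIs summed over the barcodes of a set, with the UMIs of genes outside the mt- set as the total.

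EL1 mice carried the EL1-Luc and EL1-Tag transgenes on an FVB/N background, that is, firefly luciferase and SV40 large T antigen, each under the elastase I promoter. WTg mice were the same line crossed with mice that overexpress Mettl3, the catalytic subunit of the m6A mRNA methyltransferase, from the CAG promoter (CAG-Mettl3, made in C57BL/6). Both groups therefore carried the oncogene and the reporter, and both were 6 weeks old. The elastase I promoter acts in acinar cells and CAG in nearly all cell types. The strain background goes with the Mettl3 transgene and the 2 cannot be told apart. Tumor tissue was digested with enzymes and red cells were lysed. Cells were stained with surface antibodies and a viability dye, and flow cytometry with cell sorting served to assess the share of viable cells. Whether the sort removed dead cells was not stated. RNA was captured at its 3′ end in droplets. Each group was 1 library, made from animals whose number and sex were not stated, so no test between groups or sets was possible. The intervals given are 95% intervals that cover counting error only, and the 2 libraries are not replicates of each other.

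A droplet barcode collects whatever RNA its droplet held, and a large mitochondrial share is commonly used in single-cell work to set barcodes aside before analysis. Mitochondrial mRNAs lie inside an organelle, and some long non-coding RNAs such as Malat1 and Neat1 lie in the nucleus, while the mRNAs of ribosomal proteins, glycolytic enzymes and the cytoskeleton are translated in the cytosol. Acinar cells, which make the digestive enzymes, hold much of their mRNA on the rough endoplasmic reticulum (ER). Ribosomal RNA is not polyadenylated by the usual route, and UMIs that map to its repeats or copies are usually treated as uncertain.

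High-mt barcodes were shallow in nuclear RNA but not in mitochondrial RNA. Both counts enter the mt- share that chose the set, so these depths describe it and are not a result. Kept barcodes also had to pass minimums of 500 genes and 1000 UMIs. Of the high-mt barcodes, 227 of 393 in EL1 and 222 of 440 in WTg would pass them. The median barcode held 1100 nuclear UMIs in EL1 and 1058 in WTg, against 25297 and 32936 in kept barcodes. Its median mt- count was 975 and 1659 UMIs, against 1153 and 1352 in kept barcodes, so that in WTg it was the larger of the 2. The set made up 24.2% of EL1 barcodes (22.2 to 26.4, exact binomial) and 29.6% of WTg barcodes (27.3 to 32.0). It held only 1.62% and 2.61% of the libraries' nuclear UMIs, but 21.8% and 37.5% of their mt- UMIs. In all, the results below rest on 599602 nuclear UMIs in EL1 and 852719 in WTg, of which the 10 deepest barcodes gave 12.1% and 13.6%. The median number of nuclear genes seen was 667 and 495.5, against 4803 and 5097 in kept barcodes. After each barcode was thinned to 300 nuclear UMIs, which left out 102 and 88 shallower high-mt barcodes, these medians became 222 and 217 genes, against 217 and 206, so the number of different genes per molecule was close in both sets. The 2 libraries shared 15 barcode sequences, none of which was a high-mt barcode in both, and doublets were not called.

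**Figure D1:**
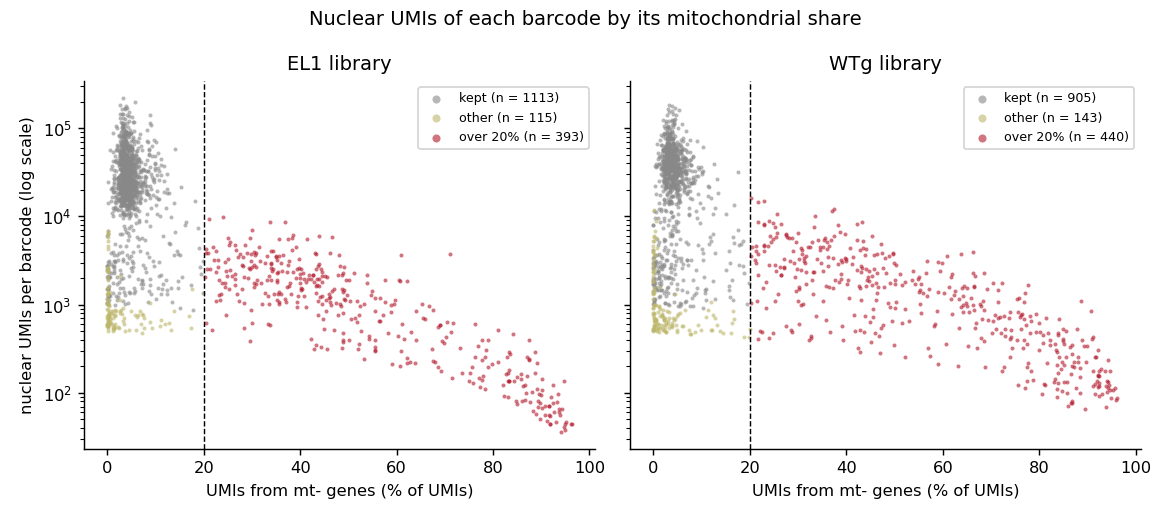
Each point is a barcode, with its percentage of mt- UMIs (horizontal) and its nuclear UMIs on a log axis (vertical), in 1 panel for each library and colored by set. The high-mt barcodes lie to the right of the dashed line at 20%, with a median of 1100 nuclear UMIs in EL1 and 1058 in WTg, and the barcodes with the highest percentages are the shallowest.

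The labels name the tissue as pancreas and the cells as epithelial, and acinar markers were present in nearly all high-mt barcodes. In barcodes thinned to 300 nuclear UMIs, 3 or more UMIs of 10 acinar markers (among them trypsinogen Prss2, chymotrypsinogen Ctrb1 and carboxypeptidase Cpa1) were present in 90.4% of the 291 thinned EL1 barcodes and 88.9% of the 352 from WTg, against 91.6% and 88.3% of kept barcodes (97.7% and 99.5% unthinned, against 99.3% and 99.7%). Such UMIs also occur in barcodes of other cells, and whether from free RNA or doublets was not tested: of the kept barcodes in which immune markers exceeded 1% of nuclear UMIs, which should lack acinar mRNA, 2.63% of 38 and 6.52% of 46 passed the same limit. Their unthinned median depths were 7265 and 17723 nuclear UMIs. Unthinned, 92.1% and 97.8% of them passed the limit, so the unthinned shares say little about which barcodes were acinar. The thinned shares do not settle this either, since barcodes of such depth lose a larger part of their UMIs in thinning than the shallower high-mt barcodes. Immune-marker barcodes therefore do not show how many acinar UMIs free RNA would leave in a thinned high-mt barcode. The same limit applies to the neuroendocrine markers below. Droplets without cells were not analysed here. Neuroendocrine markers (chromogranin Chga and 9 others) reached 3 UMIs in 22.7% and 7.67% of high-mt barcodes, against 20.2% and 8.95% of kept barcodes and none of the immune-marker barcodes, where a count of 0 leaves room for 7.89% and 6.52% (taken as 3 of the total). Macrophage markers did so in 0.687% and 0.852%, against 2.61% and 4.42%. Neutrophil, T or NK, B, endothelial and fibroblast markers did so in 0 of 291 and 0 of 352, counts that leave room for 1.03% and 0.852%. In kept barcodes these shares were at most 0.988% in EL1 and 0.663% in WTg, both for neutrophil markers, so no difference was detectable at this number of barcodes. Thinned to 300 UMIs, the sets thus held acinar and neuroendocrine transcripts at close to the same frequency. Thinning to 100 UMIs left out only 42 and 14 high-mt barcodes. Acinar markers then reached 3 UMIs in 68.9% and 71.8% of high-mt barcodes, against 76.5% and 77.9% of kept barcodes. Neuroendocrine markers did so in 6.84% and 2.11%, against 4.58% and 2.21%. Endothelial markers were sparse, with 8 UMIs in the high-mt set of EL1 (13.3 against 6.26 CPM, log2 1.09, −0.14 to 2.10) and 24 in that of WTg (28.1 against 69.9 CPM, −1.31, −1.96 to −0.73), 14 of the latter in 1 barcode.

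Across genes, the nuclear RNA of high-mt barcodes was shifted in composition in a similar way in both libraries. Of 6435 genes measured in EL1 (those with at least 10 UMIs expected in the set from the level in both sets together), 23.1% were at least 2-fold higher in high-mt than in kept barcodes and 14.4% were at least 2-fold lower, that is, 1486 and 928 genes. Of 7375 genes in WTg, 25.7% were at least 2-fold higher and 10.8% lower, that is, 1897 and 795. The median log2 ratio of all measured genes was 0.12 in EL1 and 0.28 in WTg. The split depends on scaling: with TMM factors, which center most genes in place of the total, all log2 ratios fall by 0.65 and 0.70 and the counts become 479 higher and 2197 lower in EL1, and 506 and 2324 in WTg. Ratios between genes are not affected by that choice. Positive log2 ratios below 0.65 in EL1 or 0.70 in WTg turn negative with TMM factors, while negative ones stay negative. Of the 6327 genes measured in both libraries, 87.2% had the same direction (r = 0.87 across genes, which are not independent replicates). The genes at least 2-fold higher in both were 1203, which is 81.6% of those in EL1 and 79.1% of those in WTg. The genes at least 2-fold lower in both were 410, or 45.1% and 62.0%.

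Kept barcodes were far deeper than high-mt barcodes. In a comparison restricted to barcodes with 1000 to 5000 nuclear UMIs, which was added after seeing the data, 198 high-mt barcodes faced 137 kept barcodes in EL1 (median 1992 against 2043 nuclear UMIs) and 185 faced 159 in WTg (2229 against 2177). There, 719 genes were at least 2-fold higher and 611 lower of 6513 in EL1, and 454 and 456 of 6397 in WTg. These shallow kept barcodes differ in their cell types too: they held 2880 UMIs of the 6 neutrophil markers against 2 in the high-mt barcodes in EL1, and 1387 against 0 in WTg. Macrophage markers were at 2045 CPM against 217 in EL1 and 1925 against 387 in WTg. The 10 acinar markers were at 42838 CPM against 40699 in EL1 and at 46791 against 47258 in WTg. The part of these other cell types in the like-depth values was not tested. Like-depth values are given below beside those of the gene lists and of some of the leading genes. They are not given for the other leading genes or for the single genes with the lowest ratios, and were not computed for annotation classes.

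Nuclear-retained long non-coding RNAs were among the RNAs most enriched in high-mt barcodes. Malat1, a nuclear speckle RNA, was at 91304 CPM in high-mt barcodes and 11309 in kept barcodes of EL1, a log2 ratio of 3.01. In WTg it was at 74220 against 10796 CPM, a log2 ratio of 2.78 (2.77 to 2.79). About 9.13% and 7.42% of the set's nuclear UMIs were thus of 1 gene. Neat1, the scaffold RNA of paraspeckles, was at 5755 against 1155 CPM in EL1 and 3714 against 919 in WTg (log2 2.32 and 2.01). Kcnq1ot1, an imprinted antisense RNA that acts in the nucleus, was at 2570 against 363 CPM and 3085 against 449 (log2 2.82 and 2.78). Meg3, an imprinted lncRNA, was at 103 against 30.6 CPM and 82.1 against 31.1 (log2 1.76 and 1.40). Of the 14 RNAs on the nuclear-retained list, all 4 measured in EL1 and 4 of 5 in WTg were at least 2-fold higher, and the other, Peg13, had a log2 ratio of −0.45 in WTg. The share over all measured genes was 23.1% in EL1 and 25.7% in WTg. The summed list was at 99905 against 12904 CPM in EL1 and 81300 against 12253 in WTg.

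With depth matched, the enrichment of these RNAs was smaller. Malat1 was at 100758 against 44558 CPM in EL1 (log2 1.18, 1.15 to 1.20) and 71444 against 50896 in WTg (0.49, 0.46 to 0.52). Neat1 had log2 ratios of 0.70 in EL1 and 0.22 in WTg, and Kcnq1ot1 of 0.94 and 0.61. The list's median was 0.95 in EL1 and 0.070 in WTg. With each barcode weighted equally, the Malat1 log2 ratio was 1.93 and 1.33. Malat1 was also uneven between barcodes of the set: 83 of the 393 in EL1 and 68 of the 440 in WTg had none of its UMIs, while 43.5% and 27.0% held a larger Malat1 share than 95% of the kept barcodes did. With 1000 to 5000 nuclear UMIs, 71.2% and 41.1% of high-mt barcodes passed that limit, against 32.8% and 25.2% of kept barcodes.

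Long intergenic non-coding RNAs (lincRNAs) in both libraries, and intronic transcripts in WTg, had class medians above that of all measured genes. Other non-coding classes lay nearer to the medians of all genes (0.12 in EL1 and 0.28 in WTg). Antisense RNAs (16 and 23 genes) had medians of 0.43 and 0.50, and processed transcripts (24 and 27 genes) of −0.006 and 0.33. By annotation, the 24 lincRNAs measured in EL1 had a median log2 ratio of 1.14 and the 35 in WTg of 1.13, with 13 and 18 of them at least 2-fold higher. Of all measured genes, 23.1% in EL1 and 25.7% in WTg were at least 2-fold higher. In WTg, 15 of 16 sense-intronic transcripts, which lie inside the introns of protein-coding genes, were at least 2-fold higher, with a median of 2.44. Gm19938 (2.80 in EL1 and 2.45 in WTg), Gm43462 (2.61 and 2.77) and Gm42702 (2.63 and 2.44) are of this class and were among the 10 genes with the highest mean ratio over both libraries. The lincRNA class also held genes below their kept level, such as the snoRNA host Snhg6 at −0.65 and −0.35 (chosen after its values were seen). Zcchc7, a protein-coding gene of the nuclear RNA surveillance machinery, was at 2.70 and 2.42. Whether intronic reads were counted is not given in the sources used here.

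A group of 3 overlapping or adjoining transcripts on chromosome 17 was also among the 4 genes with the highest mean ratio over both libraries. Gm42418, which RefSeq names Rn18s-rs5 and lists as a ribosomal RNA-related pseudogene, lies at chr17:39846958-39848788 on the plus strand (GRCm38, GENCODE M21, a single exon of 1831 bases). AY036118, at chr17:39847113-39848035 on the minus strand, lies wholly inside it, and Gm26917, at chr17:39843013-39846341 on the plus strand, ends just before it. Gm42418 was at 12770 against 1743 CPM in EL1 (log2 2.87) and 21006 against 2644 in WTg (2.99), and was found in 383 of 393 and 438 of 440 high-mt barcodes. AY036118 had log2 ratios of 3.78 and 3.41, and Gm26917 of 3.42 and 3.86. In WTg, 315 of the 1111 Gm26917 UMIs came from 1 barcode. Levels of these 3 are uncertain, since their reads may come from ribosomal RNA repeats and the strand setting of the count was not given. In the like-depth comparison the Gm42418 ratio was −0.23 in EL1 and 0.71 in WTg, that of AY036118 0.25 and 0.27, and that of Gm26917 0.22 and 1.19, all of them smaller than against all kept barcodes.

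Lars2, which encodes mitochondrial leucyl-tRNA synthetase, was the protein-coding gene with the highest mean ratio over both libraries. It was at 740 against 68.3 CPM in EL1 (log2 3.44, 3.29 to 3.59) and 1800 against 137 in WTg (3.72, 3.63 to 3.80), with the UMIs spread over 218 and 277 high-mt barcodes. Against kept barcodes of like depth it was 0.63 (0.33 to 0.94) and 1.70 (1.50 to 1.91) and stayed above 0 in both libraries. Gm11713, an antisense RNA among the 5 highest in WTg, was at 3.08 there and at 1.69 in EL1. Lars2 lies at chr9:123366927-123462666 on the plus strand. Where in the gene its reads fell, and whether they came from another sequence, was not tested.

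Transcripts of cytosolic ribosomal proteins were depleted throughout the list. All 82 measured members of the list were lower in high-mt barcodes in both libraries, 76 of them at least 2-fold in EL1 and 47 in WTg. Over all measured genes, 14.4% in EL1 and 10.8% in WTg were at least 2-fold lower. Their summed level was 54786 against 135404 CPM in EL1 (2.47-fold lower) and 61386 against 122663 in WTg (2.00-fold lower), with a median log2 ratio of −1.32 and −1.04. Rplp0, a stalk protein of the large subunit, was at 1386 against 4314 CPM in EL1 and 1326 against 2842 in WTg. Rpl32 (−1.62 and −1.19) and Rps24 (−1.28 and −1.13), which encode other subunit proteins, were lower as well. The member nearest to 0, Rpl7l1, a ribosome biogenesis protein caught by the list's naming rule, was at −0.35 and −0.27. Against kept barcodes of like depth the summed list was still lower, at −1.16 (−1.18 to −1.13) in EL1 and −0.87 (−0.89 to −0.84) in WTg. The typical barcodes there were closer: the median share of nuclear UMIs was 3.85% in high-mt against 5.19% in kept barcodes of EL1, and 4.48% against 5.24% in WTg. These kept barcodes were mixed, with quartiles of 2.48 and 12.9% in EL1 and 2.06 and 15.5% in WTg.

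Nuclear genes for oxidative phosphorylation, whose products work in the mitochondrion beside the mt- proteins, were lower although the mt- transcripts themselves define the set. Of 78 measured subunit genes, 49 were at least 2-fold lower in each library and none was 2-fold higher, with medians of −1.09 in EL1 and −1.07 in WTg and a summed level of 11446 against 24454 CPM and 10681 against 22206. Atp5b, the catalytic beta subunit of ATP synthase, was at 485 against 1093 CPM in EL1 and 529 against 832 in WTg (log2 −1.17 and −0.65). The cytochrome c oxidase subunits Cox4i1 (−0.65 and −1.01) and Cox8a (−0.95 and −1.12) were lower too, as was the ATP synthase subunit Atp5j2 (−1.25 in WTg). The single member above its kept level in both libraries was Ndufs1, the largest subunit of complex I, at 0.91 and 0.73. Mitochondrial ribosomal protein genes, also nuclear, had medians of −0.79 and −0.67, with 22 of 77 and 21 of 76 at least 2-fold lower and none 2-fold higher. Of all measured genes, 14.4% in EL1 and 10.8% in WTg were at least 2-fold lower, and 23.1% and 25.7% higher. At like depth the summed levels were −0.55 and −0.48 for oxidative phosphorylation and −0.38 and −0.26 for mitochondrial ribosomal proteins.

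Housekeeping mRNAs of the cytosol were lower with a few exceptions. For the counts below, 14.4% of all measured genes in EL1 and 10.8% in WTg were at least 2-fold lower. Gapdh, a glycolytic enzyme, was at 325 against 974 CPM in EL1 and 300.2 against 905 in WTg (log2 −1.58 and −1.59, and −1.33 and −1.13 at like depth). Of 12 glycolytic genes measured, 6 in EL1 and 4 in WTg were at least 2-fold lower (Ldha −1.66 and −0.85, Aldoa −1.16 and −0.97), with a median of −0.99 and −0.75. The platelet-type phosphofructokinase Pfkp was higher, at 1.56 and 1.59. All 21 cytoskeleton genes were lower in both libraries, 11 and 8 of them at least 2-fold, among them beta-actin Actb (3789 against 10213 CPM in EL1 and 7430 against 16327 in WTg) and Actg1 (−1.34 and −1.21), while the keratins Krt8 (−0.39 and −0.39) and Krt18 (−0.89 and −0.78) differed less. Of 18 translation factor genes, 8 in EL1 and 2 in WTg were at least 2-fold lower, the latter a share close to the 10.8% of all measured genes, with medians of −0.96 and −0.89 and with Tpt1, the translationally controlled tumor protein, at −1.69 and −1.28 and the elongation factor Eef1a1 at −1.24 and −0.99. Summed at like depth, the glycolytic list was at −0.88 and −0.56, the cytoskeleton list at −0.51 and −0.44 and the translation factors at −0.82 and −0.63. Eif4a2, a paralog of the RNA helicase Eif4a1, was at 1.11 and 0.98. Ndufs1, Pfkp, Eif4a2 and Rpl7l1 were chosen as exceptions after their values were seen.

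**Figure D2:**
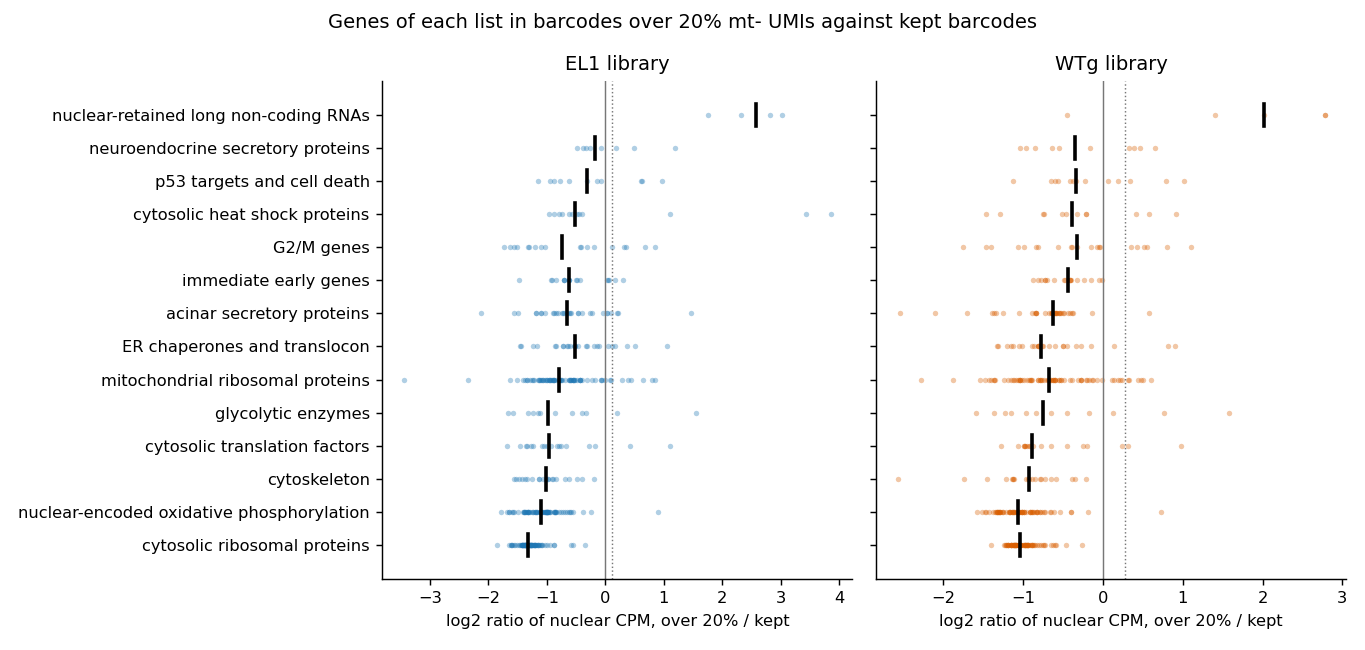
Each point is a measured gene of a list, with its log2 ratio of nuclear CPM in high-mt over kept barcodes, the bar marks the list's median and the dotted line the median of all measured genes (0.12 in EL1, 0.28 in WTg). The medians of ribosomal proteins (−1.32 and −1.04) and oxidative phosphorylation genes (−1.09 and −1.07) are the lowest, that of nuclear-retained RNAs (2.57 and 2.01) is the highest, and acinar and neuroendocrine lists lie between them.

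Secretory mRNAs differed less than the cytosolic housekeeping lists. The 37 acinar secretory genes summed to 132408 against 198961 CPM in EL1 and 157925 against 256176 in WTg, so they were the largest of the 14 lists in the set, at 13.2% and 15.8% of its nuclear UMIs. Their medians were −0.65 and −0.63, with 8 of 31 and 8 of 36 measured members at least 2-fold lower. The share over all measured genes was 14.4% in EL1 and 10.8% in WTg. The trypsinogen Try5 was at −0.85 and −0.84, the regenerating protein Reg1 at −0.26 and −0.73, chymotrypsinogen Ctrb1 at −0.71 and −0.64, and elastase Cela2a at −0.46 and −0.53. The largest deficits were Klk1 in EL1 (−2.12, tissue kallikrein) and, in WTg, Reg2 (−2.54, 5 UMIs) and the lipase Pnlip (−2.10), all of them chosen after their values were seen. The trypsinogens are near-identical copies, so their reads can be split between genes. With depth matched, the summed acinar level was −0.03 (−0.05 to −0.01) in EL1 and 0.03 (0.02 to 0.05) in WTg, and with each barcode weighted equally the list's median was −0.10 in both libraries, so the acinar deficit was not seen under those settings.

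Neuroendocrine secretory genes, which encode granule proteins and hormones, were near their kept level. The summed list was at 5545 against 4826 CPM in EL1 (log2 0.20) and 3002 against 3493 in WTg (−0.22), opposite in direction on this scale, and below 0 in both with TMM factors. Chga made up most of it, at 4224 against 3726 CPM in EL1 and 1985 against 2225 in WTg. Vgf, a neuropeptide precursor, was higher in both (1.19 and 0.66), while carboxypeptidase Cpe (−0.37 and −0.85) and chromogranin Chgb (−0.32 and −1.04) were lower. The summed list was 0.30 and 0.37 at like depth. The ER list had medians of −0.52 and −0.78, with the translocon subunits going apart: Sec61b (−1.46 and −1.33) and Sec61g (−1.44 and −1.31) were lower, and Sec61a1, their partner with the longest transcript of the 3, was higher at 1.05 and 0.90 (named after its values were seen). Hspa5, the main ER chaperone, was at 0.51 in EL1 and −0.15 in WTg, and the cyclophilin Ppib at −0.84 and −1.15. The summed ER list at like depth was 0.08 and −0.06.

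Stress, death and cell-cycle lists had medians below 0 in both libraries, but some turned at like depth. Of 18 immediate early genes, which are quickly induced by stimuli and by tissue dissociation, 13 in EL1 and 18 in WTg were below their kept level. Among all measured genes, 2950 of 6435 in EL1 and 3040 of 7375 in WTg were below theirs. The immediate early medians were −0.62 and −0.44 (Btg2 −0.70 and −0.72, Egr1 −0.50 and −0.72, Jun −0.71 and −0.78). At like depth the sum of immediate early genes was −0.27 and −0.36. p53 targets and cell death genes had medians of −0.31 and −0.34, with the proapoptotic Bax at −1.15 and −1.13, the cell-cycle inhibitor Cdkn1a at −0.62 and −0.57, and Mdm2, the ligase that marks p53 for degradation, at 0.96 and 0.79. G2/M genes had medians of −0.74 and −0.32 but sums of −0.11 and −0.00, since the abundant members Top2a (0.67 and 0.80) and Mki67 (0.36 and 0.51) were above their kept level and Ube2c (−1.73 and −0.82) was below it. Cytosolic heat shock genes had medians of −0.52 and −0.39, with Hspa8 at −0.80 and −0.74. At like depth the sum of p53 targets and cell death genes was 0.06 (−0.15 to 0.27) in EL1 and 0.25 (0.04 to 0.46) in WTg. That of G2/M genes was 0.02 (−0.19 to 0.24) and 0.22 (0.02 to 0.42), and that of heat shock genes 0.12 (0.02 to 0.23) and −0.12 (−0.23 to −0.02).

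Single barcodes carried 2 of the stress genes. Hspa1a, an inducible heat shock protein, had 272 UMIs in 12 high-mt barcodes of EL1, 135 of them in 1 barcode, and a log2 ratio of 3.86. Without the 2 barcodes that held most, the ratio was 0.44. In WTg it was 0.41 with all barcodes and −2.46 without the top 2. Its neighbor and near-identical copy Hspa1b had 95 of its 177 UMIs in 1 barcode in EL1. Hsph1, a co-chaperone, was spread over 46 and 45 barcodes and was at 1.11 and 0.92 (Hspa1b and Hsph1 were chosen after their values were seen).

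The genes with the lowest ratios were markers of immune and stromal cells. S100a9, a neutrophil calcium-binding protein, had 1 UMI in the high-mt set against 1662 in kept barcodes of EL1, and 0 against 849 in WTg, where the log2 ratio is at most −2.93 with 3 UMIs in place of 0. Its partner S100a8 had 0 against 989 UMIs in EL1 and 1 against 458 in WTg. Tyrobp and Fcer1g, signaling adapters of myeloid receptors, had 2 and 3 UMIs in EL1 and 7 and 5 in WTg (log2 −3.50 and −2.76, and −3.27 and −3.67). Srgn, the proteoglycan of immune granules, Cyba, a subunit of the phagocyte oxidase, Ccl2, a chemokine, and the fibroblast proteoglycan Dcn (0 against 775 UMIs in EL1, 1 against 426 in WTg) completed this group. Kept UMIs of some of these genes lay in few barcodes: S100a9 in 21 in EL1 and 13 in WTg, and Dcn in 5 and 4. Cyba was wider, in 220 and 238. Ratios that rest on so few kept barcodes do not show whether such cells were missing from the high-mt set. In WTg, the class II gene H2-Aa had 2 UMIs against 1940, and the stromal or vascular genes Mgp (0 against 3151), Igfbp7 (4 against 3471) and Tm4sf1 (1 against 889) were also among the 5 lowest. Over whole marker lists, 4 of 6 neutrophil markers were at 0 in the high-mt set of EL1 and 5 of 6 in WTg, all 6 fibroblast markers were at 0 in EL1 and 5 of 6 in WTg, and no macrophage marker was at 0 in either library. The summed macrophage level was 200 against 431 CPM in EL1 and 303 against 945 in WTg.

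A few genes among the lowest were not cell type markers of this kind. Mrpl36, a short mitochondrial ribosomal protein gene, had 3 UMIs against 1979 in EL1 (log2 −3.45) and 7 against 1265 in WTg (−2.28). Lmo1, a transcriptional cofactor, had 1 against 672 and 3 against 586 UMIs. Sdhaf4, an assembly factor of complex II, and Psmg1, a proteasome assembly chaperone, were among the lowest in EL1 with 1 UMI each, but were at −0.43 and −0.79 in WTg.

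Haemoglobin transcripts went the other way in EL1. The 5 red blood cell markers (4 globin genes and the heme synthesis enzyme Alas2) had 648 UMIs in 138 high-mt barcodes of EL1, at 1081 against 99.4 CPM, and 45 UMIs in 37 barcodes of WTg, at 52.8 against 36.5 CPM. The 5 richest barcodes held 258 of the 648. Hba-a1 and Hba-a2, which encode alpha globin and are near-identical copies, were among the 5 genes with the highest ratios in EL1 (3.48 and 3.67). With depth matched, the direction turned in EL1, with 841 CPM in high-mt barcodes against 5080 in kept barcodes. Red cells were lysed during preparation, and the part of residual red cell RNA was not tested.

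The log2 ratios went up with annotated transcript length. With protein-coding genes in 5 groups of about equal size, from the shortest to the longest transcript, the median log2 ratio in EL1 was −0.88, −0.25, 0.24, 0.60 and 1.07, and in WTg it was −0.79, −0.13, 0.39, 0.77 and 1.07. In the shortest group (up to 1868 bases in EL1 and 1913 in WTg) 41.4% and 34.4% of genes were at least 2-fold lower and 1.49% and 1.17% higher. In the longest group (from 5536 and 5641 bases) 0.784% and 0.825% were at least 2-fold lower and 53.6% and 53.9% higher. Spearman's rho between length and log2 ratio was 0.63 in each library, over 6363 and 7270 genes from the same barcodes, as a description. The order held when genes were first split in 3 by expression level: among the most abundant genes the shortest and longest groups were at −1.05 and 0.93 in EL1 and −0.95 and 0.96 in WTg. The step was smaller at like depth, from −0.44 to 0.47 in EL1 and −0.34 to 0.35 in WTg.

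The span of a gene on the genome, introns included, gave a similar order (medians from −0.77 to 0.998 over 5 groups in EL1 and −0.60 to 1.03 in WTg, rho 0.52 and 0.51). The 2 properties go together, so genes were also split in 3 by each. Among genes with short transcripts, the median was −0.80 at a small, −0.48 at a middle and −0.59 at a large span in EL1, and −0.66, −0.36 and −0.46 in WTg. Among genes of small span, it moved from −0.80 for short transcripts to 0.24 for long ones in EL1 (147 genes) and from −0.66 to 0.49 in WTg (167 genes). Among genes with long transcripts, span moved the median from 0.24 to 1.07 in EL1 and from 0.49 to 1.09 in WTg, and among those of middle length from −0.19 to 0.44 and from 0.03 to 0.67. Each property thus went with the ratio within groups of the other, but not in a steady order for span among short transcripts. Transcript length also rose with span inside each group (medians from 4960 to 6547.5 bases for long transcripts in EL1), so the split does not hold length fixed.

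Most ribosomal protein and oxidative phosphorylation genes are short, and so part of their position goes with length. Of the 82 measured ribosomal protein genes, 63 in EL1 and 65 in WTg lay in the shortest group, where their median was −1.31 and −1.04, against −0.81 and −0.71 for 1045 and 1217 genes of that group in no list. Oxidative phosphorylation genes of the shortest group (58 and 59) had medians of −1.10 and −1.08, and acinar genes (23 and 28) of −0.74 and −0.64, the latter close to other short genes. In that group, 37.3% and 31.7% of genes in no list were at least 2-fold lower. Mitochondrial ribosomal protein genes (36.8% and 39.5%) and acinar genes (34.8% and 28.6%) were near those shares. Cytosolic ribosomal protein genes (92.1% and 58.5%) and oxidative phosphorylation genes (67.2% and 66.1%) were above them.

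**Figure D3:**
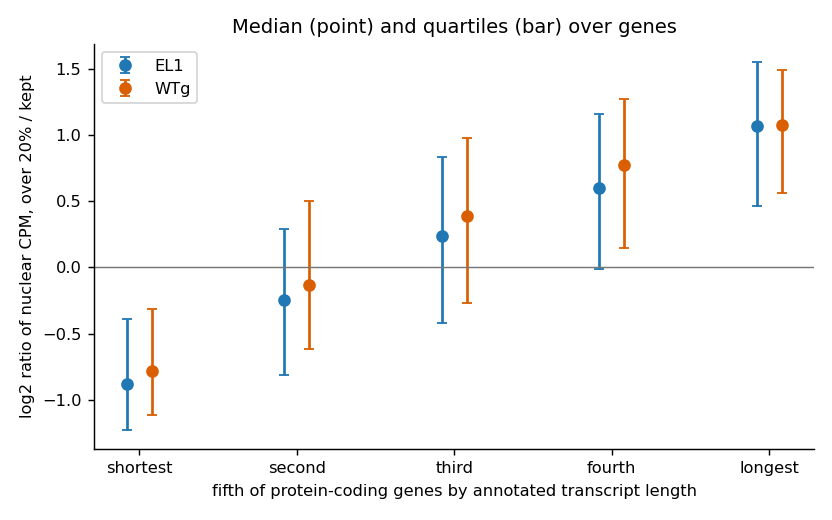
Points are median log2 ratios (high-mt over kept barcodes, nuclear CPM) and bars are quartiles over protein-coding genes, in 5 groups by annotated transcript length (horizontal), for EL1 and WTg. The medians climb from −0.88 and −0.79 in the shortest group to 1.07 in the longest in both libraries.

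The set was not uniform, and its composition changed with the mt- share. In bands of 20 to 40, 40 to 60, 60 to 80 and 80 to 100% mt- UMIs there were 139, 120, 58 and 76 barcodes in EL1 and 135, 106, 100 and 99 in WTg. Median nuclear depth dropped across the bands, from 2415 to 91.5 UMIs in EL1 and from 3213 to 176 in WTg, while the median mt- count stayed between 806 and 1142 and between 1364 and 1881. Depth and mt- share therefore move together here and cannot be told apart.

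Malat1 was highest in the lowest band. It took 10.7, 7.45, 2.91 and 0.339% of nuclear UMIs across the 4 bands in EL1, against 1.13% in kept barcodes, and 8.59, 6.74, 3.98 and 1.64% in WTg, against 1.08%. In the top band it was thus below the kept level in EL1 and above it in WTg. In that band 55 of 76 and 36 of 99 barcodes had no Malat1 UMI, and the whole band rested on 32 and 390 of them. Ribosomal protein mRNAs went the other way, at 49302, 59496, 74398 and 120830 CPM in EL1 (kept 135404) and 53775, 64924, 81349 and 117402 in WTg (kept 122663). Acinar mRNAs also were higher in each higher band, from 122468 to 261040 CPM in EL1 (kept 198961) and from 139518 to 297949 in WTg (kept 256176), so the top band lay above the kept barcodes. Nuclear oxidative phosphorylation genes were at 10608 CPM in the lowest band and 25733 in the top band of EL1 (kept 24454) and at 9283 and 20978 in WTg (kept 22206).

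The chromosome 17 transcript Gm42418 and Lars2 increased from band to band in both libraries. Gm42418 was at 10810, 14143, 22639 and 32193 CPM in EL1 and 17001, 20735, 35498 and 54088 in WTg. Lars2 was at 605, 867, 1187 and 2330 CPM in EL1 and 1461, 2147, 2426 and 3623 in WTg, the top band resting on 22 and 86 UMIs. Barcodes in neither set, which were shallow but had few mt- UMIs, also held more Gm42418 than kept barcodes did, at 15344 and 12524 CPM.

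Over genes above 100 CPM, the profile of the top band was the most like that of kept barcodes. After thinning all bands of a library to 1 depth, the correlation of log2 CPM with the kept profile was 0.65, 0.70, 0.75 and 0.82 across the bands in EL1 (1350 genes) and 0.73, 0.77, 0.84 and 0.91 in WTg (1246 genes), as a description across genes that share their libraries. The values summed over the set rest mainly on the lower bands, since the 20 to 40% band alone holds 381870 of the nuclear UMIs in EL1 and 520205 in WTg.

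**Figure D4:**
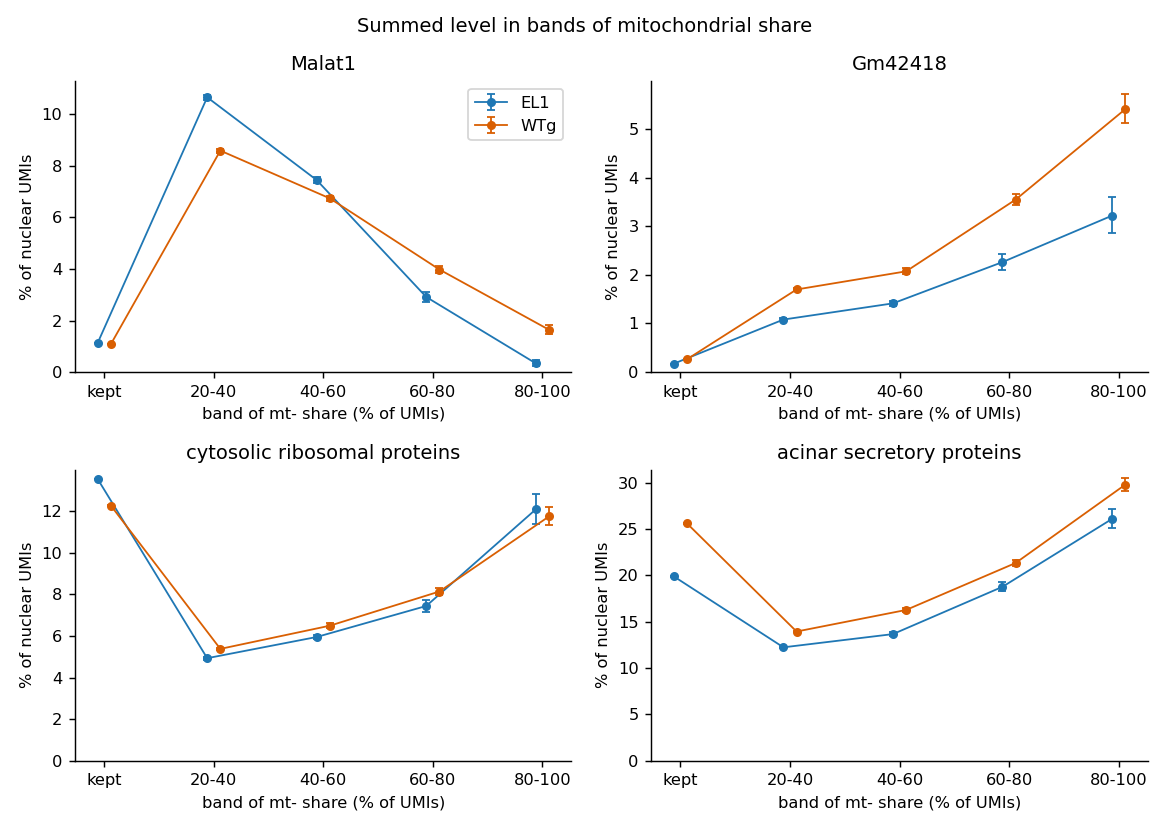
Shares of nuclear UMIs (vertical, %) of Malat1, Gm42418, ribosomal protein and acinar secretory mRNAs in kept barcodes and in each band of mt- share (horizontal), with 95% counting intervals, for EL1 and WTg. Malat1 goes down from 10.7 to 0.339% of nuclear UMIs in EL1 and from 8.59 to 1.64% in WTg, while the other 3 panels go up from the first band to the last.

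Between single barcodes the same relations were visible. Over the 393 high-mt barcodes of EL1, Spearman's rho between the mt- share and the Malat1 share was −0.69, and over the 440 of WTg it was −0.50. Between the Malat1 share and the ribosomal protein share it was −0.72 in both libraries. In barcodes with at least 1000 nuclear UMIs (213 and 227) these became −0.26 and −0.19 for the mt- share, and −0.66 and −0.60 for ribosomal proteins. In kept barcodes the rho of Malat1 with ribosomal proteins was −0.32 and −0.44, and with the mt- share 0.15 and 0.19. These values are descriptions over barcodes of 1 library, and shares of 1 total can move against each other by construction. In the 20 to 40% band, 76.3% of EL1 barcodes and 50.4% of WTg barcodes held more Malat1 than 95% of kept barcodes did, and 51.1% and 15.6% held less ribosomal protein mRNA than 95% of kept barcodes did. Among barcodes with 1000 to 5000 nuclear UMIs, 32.8% and 25.2% of kept barcodes held that much Malat1, against 71.2% and 41.1% of high-mt barcodes. Ribosomal protein mRNA was that low in 38.7% and 26.4% of these kept barcodes, against 43.9% and 13.0% of the high-mt barcodes.

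The change at the 20% limit was not a sharp step in WTg. Barcodes with 15 to 20% mt- UMIs (22 barcodes) had Malat1 at 69159 CPM and ribosomal proteins at 59798, against 74843 and 60878 in the 34 barcodes at 20 to 25%. In EL1 the 15 barcodes at 15 to 20% had Malat1 at 50352 CPM and ribosomal proteins at 106324, against 115761 and 66163 in the 29 barcodes at 20 to 25%, and the 10 deepest of those 15 held 91.8% of their nuclear UMIs.

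The makeup of the mitochondrial RNA itself, which the total share does not fix, also differed between the sets. mt-Co1, which encodes subunit I of cytochrome c oxidase, made up 16.4% of mt- UMIs in high-mt barcodes against 20.9% in kept barcodes of EL1 (log2 −0.35, −0.36 to −0.34), and 15.7% against 20.4% in WTg (−0.38, −0.38 to −0.37). The small overlapping or bicistronic partners mt-Atp8 (−0.98 and −0.89) and mt-Nd4l (−0.93 and −0.72), and the complex I subunits mt-Nd5 (−0.55 and −0.49) and mt-Nd3 (−0.15 and −0.21), were lower too. The complex I subunits mt-Nd2 (0.21 and 0.23) and mt-Nd1 (0.15 and 0.09), cytochrome b mt-Cytb (0.14 and 0.12), mt-Atp6 of ATP synthase (0.08 and 0.18) and mt-Co3 (0.10 and 0.08) were higher. mt-Co2 and mt-Nd4 were within 0.06 of 0 in both libraries. mt-Nd6, the gene on the other strand, was at −0.01 (−0.18 to 0.16) in EL1 and 0.37 (0.24 to 0.51) in WTg. Across the bands mt-Co1 went from 17.6 to 13.5% in EL1 and from 16.8 to 15.3% in WTg. Against kept barcodes of like depth the mt-Co1 log2 ratio was 0.02 (−0.03 to 0.07) in EL1 and −0.10 (−0.15 to −0.06) in WTg, so most of the difference was not seen against shallow kept barcodes.

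**Figure D5:**
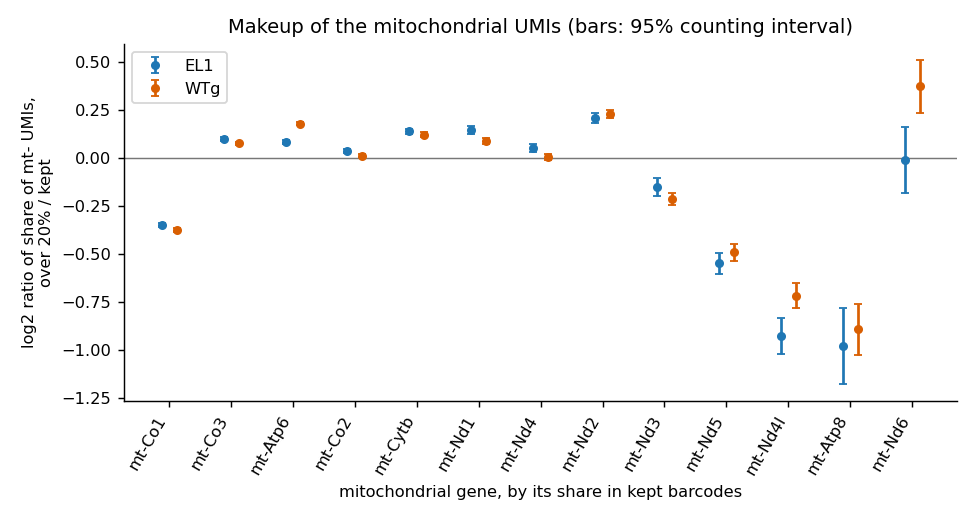
Log2 ratio of each mt- gene's share of mt- UMIs in high-mt over kept barcodes, with 95% counting intervals, in order of the share in kept barcodes. mt-Co1 lies at −0.35 in EL1 and −0.38 in WTg, mt-Atp8 and mt-Nd4l are lowest, and mt-Nd2 is at 0.21 and 0.23.

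Mettl3, the gene overexpressed in WTg mice, could be seen in the set although at few UMIs. High-mt barcodes held 29 Mettl3 UMIs in EL1 (48.4 CPM, against 15.9 in kept barcodes, under the minimum set for measured genes) and 148 in WTg (174 CPM, against 69.5), and the level was higher in WTg in both sets. The log2 ratio of high-mt over kept barcodes was 1.61 (1.02 to 2.15) in EL1 and 1.32 (1.07 to 1.56) in WTg. At like depth it was 0.51 (−0.51 to 1.59) and 0.09 (−0.41 to 0.59), intervals that hold 0. Reads from the transgene and from the mouse gene cannot be told apart in these counts.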

How the data were processed

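The authors deposited UMI counts per gene and barcode as sparse matrices from Cell Ranger (version 6.0.2 per the file headers). The submitters' processing notes name GRCm38, R 4.1 and Seurat 4.0.5. Whether introns or antisense reads were counted is not given in the sources used here. A deposited dense table of the same counts held the barcodes with over 200 and under 10000 genes and 285 and 335 of the high-mt barcodes. It served as an alternative.

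All 32285 genes were read. The members and the gene lists were chosen with earlier results of these data known. Counts were summed over the barcodes of each set and divided by the nuclear total. A gene was measured where at least 10 UMIs were expected in the high-mt set from both sets together, and a count of 0 against a measured level was set to 3 in ratios. Ratios have exact conditional binomial intervals, levels exact Poisson intervals and shares of barcodes Clopper-Pearson intervals (95%). The room that a count of 0 leaves was taken as 3 counts of the total. With 1 library per group there was no test across samples. For shares of barcodes, each was thinned to 300 nuclear UMIs (100 as an alternative). Transcript length, span and biotype came from GENCODE M21, which matched 32235 genes.

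Named genes were the 10 highest and 10 lowest by mean log2 ratio over both libraries, among genes measured in both with the same direction in sums and with barcodes weighted equally and intervals without 0, then the 5 highest and lowest of each library, then Malat1, Neat1, Mettl3, Gapdh, up to 4 members of each list by kept level, and the mt- genes. Exceptions are marked in the text. A gene that the rule names is not reported here. Features of protein sequences were not analysed here. Tools were Python 3.11.15, numpy 2.4.6, scipy 1.17.1, pandas 2.3.3, matplotlib 3.10.9, R 4.3.3 and edgeR 4.0.16 (TMM factors only). The ratio script was tested on simulated counts.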

Additional observations from a re-analysis of the deposited data

Results flagged for a closer look

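Several values went in opposite directions in the 2 libraries. Each direction is a difference between 2 sets of barcodes in 1 library, so the difference between libraries was not tested. The summed neuroendocrine secretory list had a log2 ratio of 0.20 in EL1 and −0.22 in WTg, a difference of 0.42. The 10 neuroendocrine markers differed by 0.36 (0.16 and −0.19) and Chga, their most abundant member, by 0.35 (0.18 and −0.16). Hspa5, the main ER chaperone, differed by 0.66 (0.51 and −0.15). With TMM factors, each of these ratios is below 0 in both libraries.

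Zg16, a zymogen granule protein, differed by 1.85 (1.47 and −0.38), and 246 of its 355 UMIs in high-mt barcodes of EL1 came from 1 barcode. Dmbt1, a secreted scavenger receptor, differed by −0.97 (−0.40 and 0.57), and rested on 59 UMIs in 18 barcodes in EL1 and 649 in 146 in WTg. With TMM factors both Dmbt1 ratios are below 0. Zg16 and Dmbt1 were named after their values were seen. Malat1 in the band of 80 to 100% mt- UMIs differed by −2.34, with a log2 ratio over kept barcodes of −1.74 in EL1 (32 UMIs) and 0.61 in WTg (390 UMIs).

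In barcodes that were neither high-mt nor kept (115 in EL1, 143 in WTg), the 4 haemoglobin genes and Alas2 made up 59.0% of nuclear UMIs in EL1 and 53.7% in WTg, against 0.108% and 0.00528% in the high-mt set.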

How the results depend on the processing

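Values are log2 medians unless said otherwise. Under equal weighting, EL1 and WTg gave −1.04 and −0.55 for ribosomal proteins, 1.75 and 0.89 for nuclear-retained RNAs, and −0.10 and −0.10 for the acinar list, with 917 and 570 genes at least 2-fold higher. Oxidative phosphorylation was at −0.52 and the group of longest transcripts at 0.47 in WTg. With TMM factors these were −1.97 and −1.73, 1.92 and 1.32, −1.31 and −1.32, and −1.75 and −1.76 for oxidative phosphorylation. The shortest transcripts were then at −1.54 and −1.48 and the longest at 0.41 and 0.38, with 479 and 506 genes higher and 2197 and 2324 lower. Median-of-ratios scaling gave 2.45 for nuclear-retained RNAs in EL1, and in WTg −1.32, 1.73 and −0.91 for the first 3 lists with 1239 genes higher and 1385 lower. A total without acinar and haemoglobin genes gave 2.46 for nuclear-retained RNAs in EL1, and in WTg −1.22 for ribosomal proteins, −0.80 for acinar genes and 1212 genes lower.

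A limit of 15% gave −1.13 for ribosomal proteins in EL1 and 2.22 for nuclear-retained RNAs in WTg. A limit of 40%, which left 254 barcodes in EL1, gave −1.09 and −0.76 for ribosomal proteins and −0.36 and −0.39 for acinar genes, with 463 and 696 genes higher and 543 and 444 lower. At 1000 or more nuclear UMIs the acinar list was at −0.81 and −0.80 and nuclear-retained RNAs at 2.50 in WTg. With other gene minimums (3, 30 and none), nuclear-retained RNAs were at 2.26, 2.82 and 2.26 in EL1 and 2.10, 2.78 and 2.20 in WTg, genes higher numbered 2670, 458 and 5390, and 3015, 736 and 5721, and genes lower in WTg 511 (30) and 1256 (none). Without the 10 deepest barcodes, nuclear-retained RNAs were at 2.38 in WTg.

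Chosen after seeing the data, like depth gave −1.14 and −0.84 for ribosomal proteins, 0.95 and 0.070 for nuclear-retained RNAs, −0.59 and −0.51 for oxidative phosphorylation, and −0.073 for acinar genes in EL1, which turned to 0.040 in WTg. It gave 719 and 454 genes higher, 611 and 456 lower, and 0.47 and 0.35 for the longest transcripts. Like depth also turned the medians of neuroendocrine genes (0.39 in EL1, 0.35 in WTg), ER genes (0.12) and heat shock genes (0.043) in EL1, and p53 targets (0.30) and G2/M genes (0.40) in WTg. Neuroendocrine medians turned as well under equal weighting (0.12) and a minimum of 30 (0.18) in EL1 and with no minimum in WTg (0.14), and G2/M genes under equal weighting in WTg (0.080). Hspa1a in WTg turned to −2.46 without 2 barcodes. The other added settings were the leaving out of the deepest barcodes and of those over 80%, and every setting for the sequence features and the other lists.

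The mt-Co1 ratio was −0.36 in EL1 against stricter kept barcodes, −0.41 and −0.41 at 40%, −0.33 and −0.34 with equal weighting, and −0.28 and −0.36 at 1000 nuclear UMIs. The Malat1 ratio of the 60 to 80 over the 20 to 40% band (−1.87 and −1.11) was −2.38 and −1.47 with equal weighting and −1.58 and −0.79 at 1000 nuclear UMIs. The cause of these shifts was not tested. With the dense table, the medians stayed within their counting intervals. No paired analysis was possible because no result came from a test and a group had only 1 library.

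The counts limit the top band most, with 9443 nuclear UMIs in EL1 and 23739 in WTg. Genes below the minimum of 10 expected UMIs were not compared.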
